A study of Mus musculus with 24 samples.

Results

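The F-box genes studied here were all rows of the count table whose symbol is Fbxl, Fbxo or Fbxw followed by a number and at most 1 more letter. The rule found 76 of the 23284 genes in the table, chosen by name and not by any measured value: 18 of the FBXL class, 37 of the FBXO class and 21 of the FBXW class. Another 7 F-box genes with older symbols (Btrc, Skp2, Ccnf, Kdm2a, Kdm2b, Lmo7 and Lrrc29) fell outside it and are described apart.

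An F-box protein is the exchangeable part of an SCF ubiquitin ligase. Its F-box motif binds the adaptor SKP1, which joins it to the cullin CUL1 and the RING protein RBX1, while the rest of the protein holds the substrate that is to be ubiquitinated. The classes are named after that substrate-holding part: WD40 repeats in FBXW, leucine-rich repeats in FBXL, and other or no known domains in FBXO. In embryonic stem cells the family is best known for Fbxo15, a gene switched on with the pluripotent state and long used as a reporter of it.

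The RNA was that of mouse embryonic stem cells of C57BL/6 background, kept on fibroblast feeders with serum and LIF, and of embryoid bodies, the aggregates in which such cells start to differentiate. There were 4 genotypes: EED f/f, a conditional line without tamoxifen; EED KO, the same gene deleted with 800 nM 4-hydroxytamoxifen; and EED KO cells carrying wild-type EED (KO+WT) or an EED form named N-KR in the labels (KO+N-KR), both tamoxifen-treated. EED is a core subunit of Polycomb repressive complex PRC2, and the series title names SKP1A, the adaptor to which F-box proteins bind. Stem cells named 3i in the labels and embryoid bodies of 1 and 2 days (EB day 1, EB day 2) were profiled in every genotype, with 2 libraries per group. The labels spell out neither N-KR nor 3i, and nothing in them says that a genotype is more than 1 line, or that its libraries came from separate cultures. Genotype cannot be told apart from the history of a line, nor, in comparisons with f/f, from tamoxifen.

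The 24 libraries held 7553683 to 14426034 counts each. The 2 libraries of a group differed by 1.10 to 1.18 times the variance of binomial sampling over all genes (genotypes of the same state differed by 4.98 to 24.3 times it), so they were summed and counted as 1 sample. This left 12 samples of 18017598 to 25160294 counts, 1 for each genotype and state. A genotype was therefore compared over its 3 states and a state over its 4 genotypes, in 1 additive fit (edgeR quasi-likelihood test, Benjamini-Hochberg adjustment over 15220 genes). A low p therefore says that a difference was even over states or genotypes, not that it exceeds the spread between independent lines. Levels are given in CPM, which scales counts to a common library size by TMM, and differences as log2 fold changes ± standard error. Of 16 pluripotency markers 11 fell against 3i on each day, while 4 rose at EB day 1 and 3 at EB day 2. All 8 markers of the formative epiblast rose on both days. Of all genes, 33.2% fell and 32.4% rose at EB day 1, and 30.5% fell and 33% rose at EB day 2. Markers of feeder fibroblasts summed to 477 to 792 CPM in the 3i samples and 61.3 to 147 CPM in the embryoid bodies.

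Stem cells and early embryoid bodies transcribed most of the family outside 1 branch of it. Of the 76 genes, 61 passed the filter on low counts: 17 FBXL, 35 FBXO and 9 FBXW genes. To compare levels between genes, CPM were divided by the length of the merged exons (GENCODE, matched for 76 genes). On that scale 47 genes had a median over 1 CPM per kb in the 12 samples and 33 a median over 5. The highest median was that of Fbxo5, whose product EMI1 inhibits the anaphase-promoting complex, at 57.6 CPM per kb (47.7 to 67.9 over the 12 samples). Fbxo22, which targets histone demethylases of the KDM4 group, followed at 55.9 (42.2 to 83.3), so the ranges of these neighbours in the order overlapped. Fbxo15 had a median of 36.1 with the widest span of the leading genes, 25.5 to 105. Fbxo21 (27.2), Fbxo38 (24.4), the CpG-binding protein gene Fbxl19 (23.3) and Fbxw11 (20.8), which encodes a beta-TrCP protein acting on beta-catenin, came next, and the ranges of Fbxo38, Fbxl19 and Fbxw11 overlapped.

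**Figure D1:**
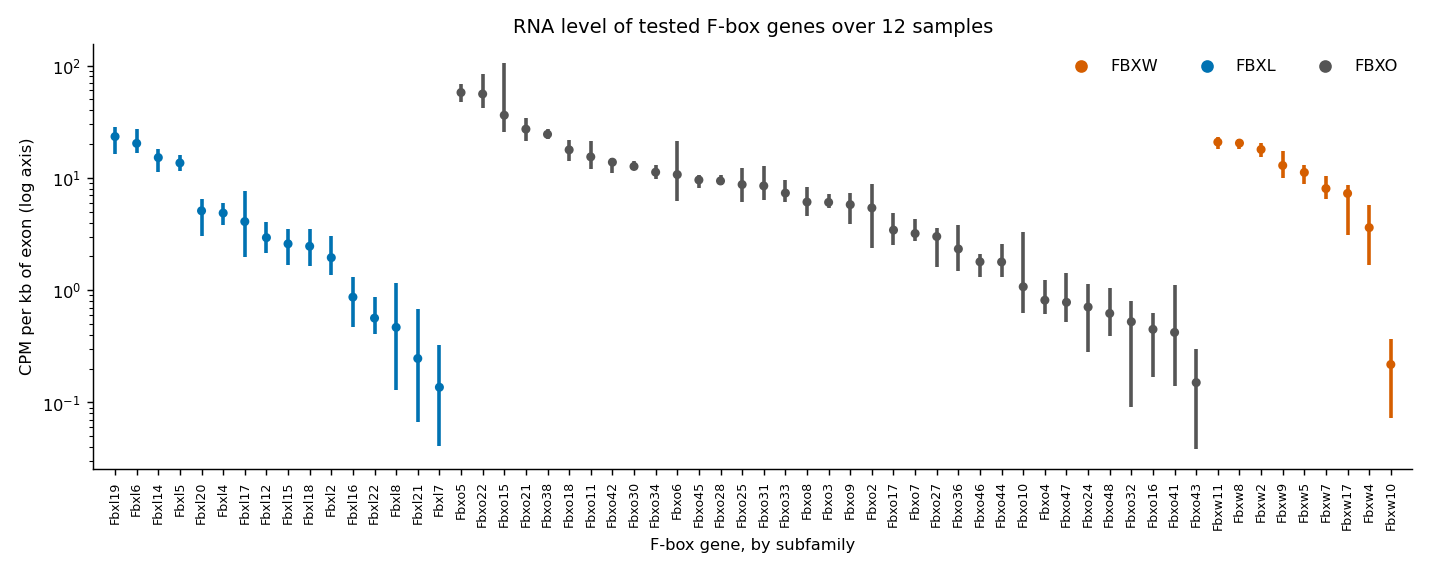
RNA level of the tested F-box genes but 1, as CPM per kb of exon on a log axis, by class. Each point is the median of the 12 samples and each line runs from the lowest to the highest sample. Fbxo5 and Fbxo22 stand highest, and the lines are longest for genes such as Fbxl21, Fbxl8 and Fbxo32.

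The 15 genes that did not pass the filter were Fbxo39, Fbxo40, Fbxl13 and 12 FBXW genes: Fbxw13, Fbxw14, Fbxw15, Fbxw16, Fbxw18, Fbxw19, Fbxw20, Fbxw21, Fbxw22, Fbxw24, Fbxw26 and Fbxw28. These 12 lie in a single run of 14 protein-coding genes on chromosome 9 in the RefSeq annotation of GRCm38, in which the remaining 2 genes are Fbxw23 and Fbxw25. Of the 12, 7 had no count in any sample. The highest total was 3 counts, and all 12 together had 11 of 260258739 counts. A count of 0 over all samples allows a level of up to 0.0115 CPM, counting error only. Genes of this rodent branch are close copies of each other, and reads that fit several copies could have been dropped or split in the authors' counting, so these levels are uncertain gene by gene. The branch is known for expression in oocytes, and in these samples the oocyte genes Gdf9 (at most 0.431 CPM), Nobox (at most 0.552) and Bmp15 (at most 0.0393) were also low, while other genes of the oocyte and germline list were not. Zp3, an egg coat gene, stood at 1.56 to 6.39 CPM, and the germ cell genes Ddx4 and Dazl at 18.3 to 56.6 and 16.3 to 33.8 CPM. Of the 6 genes of that list that could be tested, 4 rose and 1 fell at EB day 1.

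Most of the tested F-box genes differed between 3i and EB day 1, in both directions. At EB day 1, 17 of the 61 rose and 22 fell against 3i. Over all genes tested 32.4% rose and 33.2% fell, so the family changed about as often as genes in general. In bulk RNA, fewer cells of a type and less RNA per cell cannot be told apart. At EB day 2, 17 rose and 18 fell against 3i, beside 33% and 30.5% of all genes. Between the days, 15 rose and 19 fell, beside 28.2% and 27.2% of all genes. Both days are compared with the same 3i samples, so the comparisons are not independent. By class, 10 of 17 FBXL genes fell and 4 rose at EB day 1, 1 of 9 FBXW genes fell and 5 rose, and 11 of 35 FBXO genes fell and 8 rose. With library totals in place of TMM scaling, the median of all genes at EB day 1 moved from -0.01 to -0.11. The F-box genes then split into 13 higher and 27 lower at EB day 1, and into 18 higher and 15 lower between the days. Shares of all genes under library totals are not given here or below, so such counts are not read against genes in general.

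**Figure D2:**
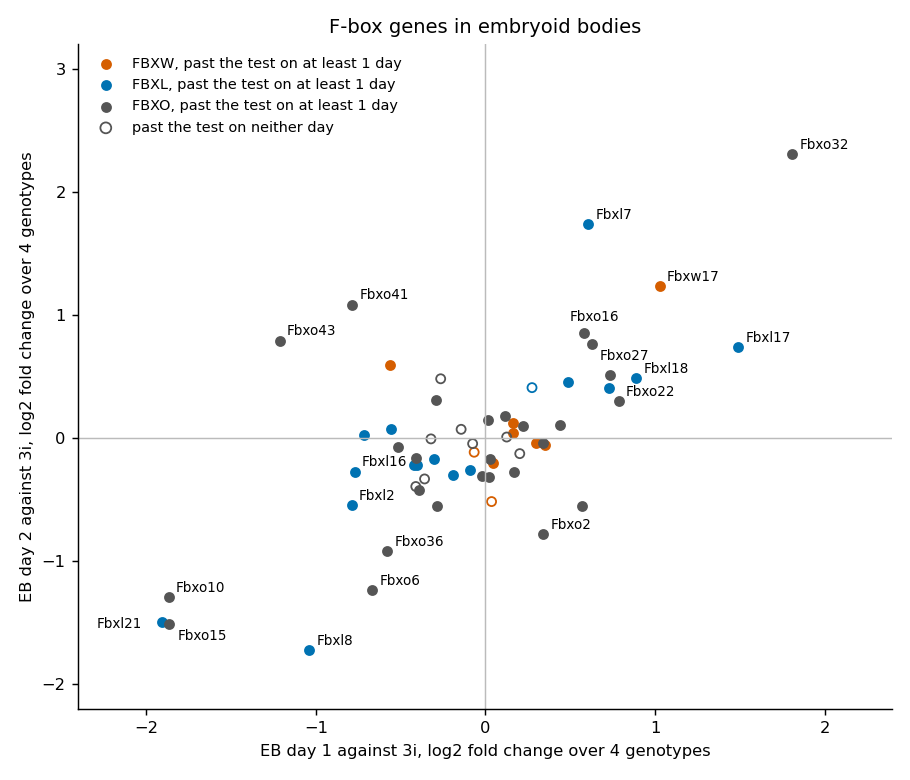
Log2 fold change of each tested F-box gene at EB day 1 (horizontal) and EB day 2 (vertical) against 3i over the 4 genotypes, coloured by class, with open circles for genes past the test on neither day. Both axes share the 3i samples. Fbxo32 lies at the upper right, Fbxo15, Fbxo10 and Fbxl21 at the lower left, and Fbxo43 and Fbxo41 at the upper left, lower at EB day 1 and higher at EB day 2.

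A loose group of 6 F-box genes was placed under chromatin and transcription. Of these, 4 fell and 1 rose at EB day 1, beside 33.2% and 32.4% of all genes. At EB day 2, 4 fell and 2 rose, beside 30.5% and 33%. Fbxo15, named above as a reporter of pluripotency, and Fbxo10 had the largest falls named in this paragraph, both -1.87 at EB day 1. Fbxo22, which targets histone demethylases, is described with the cell cycle genes below. In the order f/f, KO, KO+WT and KO+N-KR, used for states, Fbxo15 stood at 194, 215, 207 and 215 CPM at 3i, at 63.1, 55.7, 57.5 and 52.4 at EB day 1, and at 81.3, 87.8, 67.2 and 58.0 at EB day 2. Every 3i sample lay above every embryoid body sample. It fell at EB day 1 (-1.87 ± 0.09, adjusted p = 2.68e-09) and was still lower at EB day 2 (-1.51 ± 0.09, adjusted p = 1.38e-08), after a rise between the days (0.35 ± 0.09, adjusted p = 0.00565). Fbxo10, whose product binds the survival factor BCL2, stood at 12.2, 13.5, 13.5 and 15.1 CPM at 3i, 3.81, 4.46, 2.93 and 3.83 at EB day 1 and 5.34, 8.08, 4.60 and 4.45 at EB day 2. It took the same course, with -1.87 ± 0.15 at EB day 1 (adjusted p = 2.14e-07) and -1.30 ± 0.15 at EB day 2 (adjusted p = 4.5e-06), and the groups did not overlap with 3i. Fbxo11, receptor for the repressor BCL6, stood at 67.1 to 85.0 CPM at 3i, 55.1 to 63.4 at EB day 1 and 48.0 to 52.9 at EB day 2, without overlap between any of the states. It fell at EB day 1 (-0.29 ± 0.07, adjusted p = 0.00292) and further at EB day 2 (-0.55 ± 0.07, adjusted p = 1.55e-05). Fbxl19, a CXXC protein that binds CpG islands, went the other way, from 69.4 to 82.7 CPM at 3i to 99.3 to 115 at EB day 1 and 93.5 to 121 at EB day 2. It rose by 0.49 ± 0.05 (adjusted p = 1.93e-06) and 0.45 ± 0.05 (adjusted p = 4.14e-06).

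Cell cycle F-box genes numbered 10, with 4 higher and 3 lower at EB day 1, beside 32.4% and 33.2% of all genes. At EB day 2, 2 were higher and 2 lower, beside 33% and 30.5%. Fbxw7, receptor for cyclin E, MYC and NOTCH, stood at 36.9, 46.5, 44.5 and 39.7 CPM at 3i, 49.6, 55.4, 52.3 and 56.4 at EB day 1 and 39.7, 35.4, 42.3 and 43.0 at EB day 2. It peaked at EB day 1 (0.35 ± 0.08, adjusted p = 0.00126) and fell back by 0.41 on the log2 scale (SE 0.08, adjusted p = 0.000568). Fbxo22 also peaked: 96.0 to 107 CPM at 3i, 162 to 189.6 at EB day 1 and 113 to 135 at EB day 2, with no overlap between states. Its changes were 0.79 ± 0.05 at EB day 1 (adjusted p = 8.38e-09) and 0.30 ± 0.05 at EB day 2 (adjusted p = 6.81e-05), with a fall of -0.49 ± 0.04 between the days (adjusted p = 1.46e-06). The pair of genes for inhibitors of the anaphase-promoting complex behaved unlike each other. Fbxo5 stood at 92.5 to 123 CPM at 3i and 112 to 132 at EB day 1, and its rise (0.22 ± 0.06, adjusted p = 0.00426) was lost without KO+WT (0.16, adjusted p = 0.0686) and under library totals (0.12, adjusted p = 0.0845). Fbxo43, the EMI2 gene that holds oocytes in metaphase, was near the lower limit of detection, with 0.279, 0.794, 0.431 and 1.04 CPM at 3i, 0.154, 0.282, 0.293 and 0.340 at EB day 1 and 0.782, 1.21, 1.10 and 1.19 at EB day 2. It fell at EB day 1 (-1.21 ± 0.34, adjusted p = 0.00659) and rose between the days (2.00 ± 0.31, adjusted p = 0.000133), when no sample of the 2 days overlapped. Its level at EB day 2 above 3i (0.79 ± 0.26, adjusted p = 0.0183) did not pass without f/f (0.64, adjusted p = 0.0872), without KO+WT (0.65, adjusted p = 0.0987) or in DESeq2 (0.83, adjusted p = 0.0854). Fbxw11 moved little, from 75.1 to 91.0 CPM at 3i to 88.2 to 97.4 at EB day 1 (0.16 ± 0.05, adjusted p = 0.0127), and lost that call without f/f, without KO+N-KR, without the first libraries and under library totals (adjusted p = 0.0839, 0.0704, 0.0617 and 0.274). Against 3i at EB day 2, Fbxw7 (-0.06 ± 0.08, adjusted p = 0.517), Fbxw11 (0.04 ± 0.05, adjusted p = 0.504) and Fbxo5 (0.09 ± 0.06, adjusted p = 0.174) did not pass. Fbxl8, linked to cyclin D3, fell from 1.55 to 2.19 CPM at 3i to 0.247 to 0.804 at EB day 2 (-1.73 ± 0.29, adjusted p = 0.00015). At EB day 1 its value was -1.04 ± 0.27 (adjusted p = 0.00398), and -0.52 (adjusted p = 0.257) without the first libraries.

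**Figure D3:**
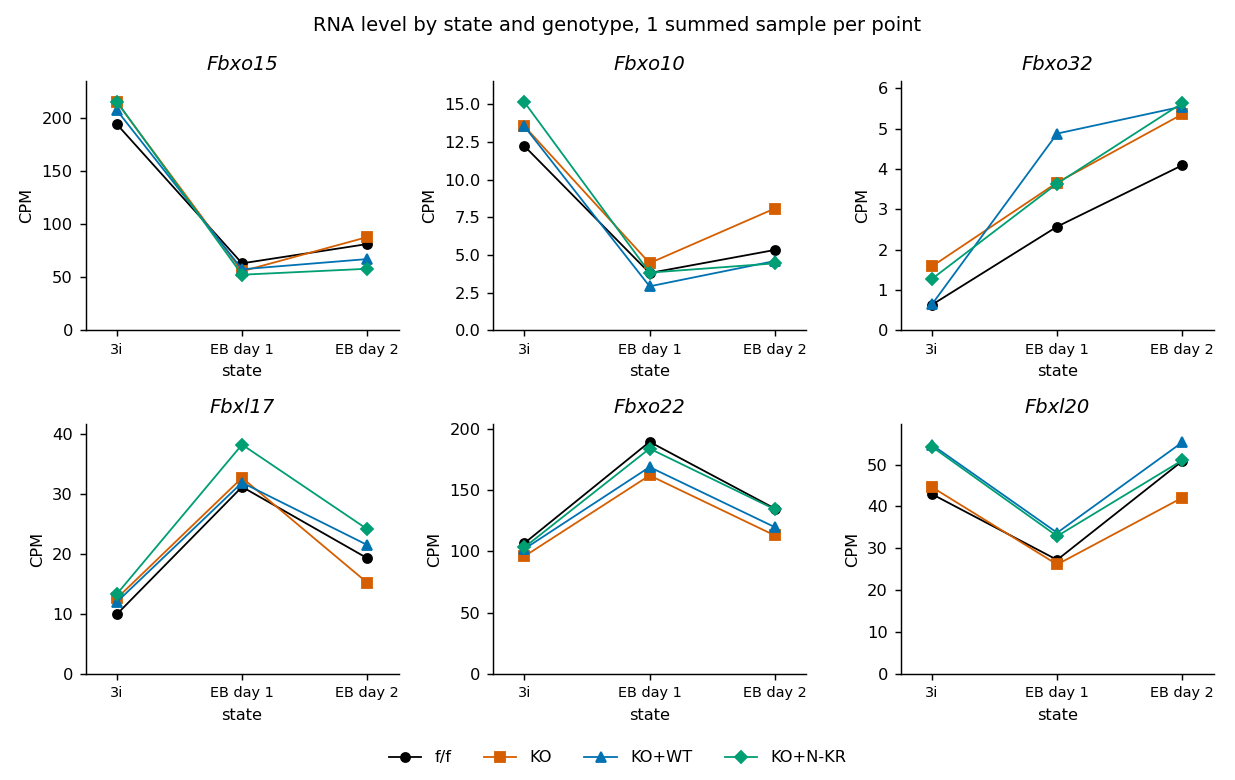
CPM of 6 F-box genes by state, 1 line per genotype and 1 summed sample per point, each axis starting at 0. Fbxo15 and Fbxo10 drop after 3i in all 4 genotypes, Fbxo32 climbs, Fbxl17 and Fbxo22 are highest at EB day 1, and Fbxl20 is lowest there.

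Of the 9 clock, iron, metabolism and mitochondria genes, 7 fell and 2 rose at EB day 1, beside 33.2% and 32.4% of all genes, and 4 fell and 1 rose at EB day 2, beside 30.5% and 33%. Fbxl21, which binds cryptochromes, fell and stayed low, from 1.07 to 1.56 CPM at 3i to 0.154 to 0.582 at EB day 1 (-1.91 ± 0.28, adjusted p = 4e-05) and 0.368 to 0.625 at EB day 2 (-1.50 ± 0.26, adjusted p = 0.000199). Fbxl5, the iron sensor that controls the iron regulatory protein IRP2, stood at 76.6 to 88.0 CPM at 3i, 68.6 to 79.0 at EB day 1 and 63.5 to 76.2 at EB day 2. It was lower on both days (-0.19 ± 0.05, adjusted p = 0.00287, and -0.30 ± 0.05, adjusted p = 9.68e-05). Fbxo7, a Parkinson disease gene that acts in mitophagy, stood at 19.8 to 23.8 CPM at 3i and 15.1 to 18.5 over both days, with falls of -0.39 ± 0.09 (adjusted p = 0.00132) and -0.42 ± 0.09 (adjusted p = 0.000787). Fbxl2, a membrane-anchored F-box gene, fell from 8.68 to 10.5 CPM at 3i to 4.68 to 6.11 at EB day 1 (-0.79 ± 0.12, adjusted p = 5.87e-05). Fbxo9, which acts on regulators of the kinase mTOR, had the larger of the 2 rises, from 10.1 to 10.7 CPM at 3i to 16.2 to 18.8 at EB day 1 (0.74 ± 0.08, adjusted p = 4.03e-06). The other rise, named after its value was seen, was that of Fbxw8, a partner of CUL7 (0.16 ± 0.05, adjusted p = 0.0124), which did not pass under library totals (0.06, adjusted p = 0.26).

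Fbxo32, the atrogin-1 gene best known from wasting muscle, rose more than any other F-box gene that was tested. It stood at 0.637, 1.59, 0.647 and 1.28 CPM at 3i, 2.57, 3.66, 4.88 and 3.64 at EB day 1 and 4.09, 5.36, 5.55 and 5.63 at EB day 2, so that no embryoid body sample was as low as the 3i samples. The changes were 1.81 ± 0.23 at EB day 1 (adjusted p = 1.18e-05) and 2.30 ± 0.22 at EB day 2 (adjusted p = 1.04e-06). The 8 muscle markers summed to 15.4 to 22.2 CPM over the 12 samples, and Myod1 and Ckm, which define skeletal muscle, were at most 0.297 and 0.463 CPM. Of the 2 muscle markers with enough counts to test, 1 rose and 1 fell on each day. Myh3, an embryonic myosin gene, stood at 1.45 to 2.26 CPM at 3i, 4.79 to 7.42 at EB day 1 and 5.74 to 8.23 at EB day 2, and so was high in the same samples as Fbxo32. Des, the desmin gene, stood at 13.6 to 20.4 CPM at 3i and 10.8 to 12.9 at EB day 2. The part of muscle-like cells in the Fbxo32 level was not tested. Of the other muscle-linked members, Fbxo40 was below the filter, Fbxo30 and Fbxl22 passed on neither day, and Fbxo25 fell at EB day 1 (-0.51 ± 0.07, adjusted p = 3.05e-05).

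The F-box genes placed under glycoprotein binding form a group in which some products recognise the sugar chains of misfolded proteins. Among these 5 genes, 1 rose and 1 fell at EB day 1, beside 32.4% and 33.2% of all genes. At EB day 2, 1 rose and 2 fell, beside 33% and 30.5%. Fbxo6 fell at each step, from 32.6 to 45.1 CPM at 3i to 22.3 to 27.3 at EB day 1 and 13.3 to 17.6 at EB day 2, without overlap (-1.23 ± 0.10 at EB day 2, adjusted p = 1.38e-07). Fbxo27 rose from 4.31 to 6.02 CPM at 3i to 6.63 to 9.49 at EB day 1 (0.63 ± 0.11, adjusted p = 0.000235) and 8.50 to 9.61 at EB day 2 (0.77 ± 0.11, adjusted p = 4.39e-05). Fbxo2, Fbxo6 and Fbxo44 are direct neighbours on chromosome 4, and Fbxo17 and Fbxo27 on chromosome 7, in the RefSeq annotation of GRCm38. Fbxo2 fell between the days (-1.13 ± 0.18, adjusted p = 0.000132) and was lower at EB day 2 than at 3i (-0.78 ± 0.18, adjusted p = 0.00172). Its KO sample at EB day 2 (7.14 CPM) lay among the 3i samples (5.44 to 8.88 CPM), and the other 3 did not (3.08 to 3.23 CPM). Fbxo17 and Fbxo44 passed against 3i on neither day.

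Neural F-box genes gave 2 falls and no rise at EB day 1 among 4 genes, beside 33.2% and 32.4% of all genes. They gave 2 rises and 1 fall at EB day 2, beside 33% and 30.5%. Fbxo41, a neuronal centrosome gene, stood at 2.55, 1.96, 3.07 and 3.12 CPM at 3i, 1.23, 0.939, 2.44 and 1.75 at EB day 1 and 5.84, 3.21, 7.44 and 6.72 at EB day 2. It fell at EB day 1 (-0.78 ± 0.18, adjusted p = 0.00151) and rose to EB day 2 (1.08 ± 0.15 against 3i, adjusted p = 3.56e-05, and 1.87 ± 0.17 between the days, adjusted p = 1.15e-06), when every sample exceeded every 3i sample. Fbxl16, which lacks the usual link to CUL1, fell at EB day 1 from 3.07 to 4.74 CPM to 1.70 to 2.83 CPM (-0.77 ± 0.16, adjusted p = 0.000745). The 6 neuron markers in the table summed to 249 to 313 CPM at 3i, 204 to 259 at EB day 1 and 89.2 to 138 at EB day 2. Most of that sum was Stmn2, with 228 to 283 CPM at 3i and 68.2 to 93.1 at EB day 2. Of the 4 tested neuron markers, 2 rose and 1 fell at EB day 2, with a median log2 change of 0.74. Snap25 went from 0.0418 to 0.431 CPM at 3i to 0.690 to 2.08 at EB day 2 and Rbfox3 from 0.189 to 0.756 to 1.20 to 1.79 CPM, without overlap, as for Fbxo41. The part of neuronal cells in the Fbxo41 level was not tested.

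Other members with large changes had varied roles. Fbxl17, which clears wrongly paired BTB proteins, stood at 9.91, 12.6, 12.0 and 13.3 CPM at 3i, 31.2, 32.7, 31.9 and 38.2 at EB day 1 and 19.3, 15.2, 21.5 and 24.1 at EB day 2. It peaked at EB day 1 (1.49 ± 0.10, adjusted p = 3.64e-08) and was still higher at EB day 2 (0.74 ± 0.10, adjusted p = 3.07e-05), with no overlap between states. Fbxl18 followed the same course from 12.8 to 15.1 CPM to 22.9 to 27.4 CPM (0.89 ± 0.08 at EB day 1, adjusted p = 2.81e-07). Fbxl15, which acts on the BMP pathway ligase SMURF1, rose from 2.26 to 3.02 CPM to 3.88 to 4.73 CPM (0.73 ± 0.15 at EB day 1, adjusted p = 0.000808). Fbxw17, 1 of the genes placed with the rodent oocyte FBXW branch and the only tested one of 13 in the table, rose from 5.60 to 6.98 CPM to 10.7 to 13.8 and then 13.8 to 15.7 CPM (1.03 ± 0.11 and 1.23 ± 0.11, adjusted p = 2.54e-06 and 4.59e-07). Fbxl7, linked to Aurora A kinase, rose from 0.189 to 0.754 CPM at 3i to 0.966 to 1.49 at EB day 2 (1.74 ± 0.32, adjusted p = 0.00037). Fbxo16 rose from 0.662 to 1.67 CPM to 1.88 to 2.47 CPM at EB day 2 (0.85 ± 0.24, adjusted p = 0.00643), and Fbxo36 fell from 2.83 to 3.45 CPM to 1.34 to 2.10 CPM (-0.92 ± 0.18, adjusted p = 0.00044). Fbxw4, the dactylin gene disrupted in a mouse limb mutant, dipped to 4.12 to 7.84 CPM at EB day 1 and reached 12.3 to 14.0 CPM at EB day 2 (1.15 ± 0.12 between the days, adjusted p = 4.97e-06). Fbxo24 went the other way, from 1.93 to 2.83 CPM at EB day 1 to 0.905 to 1.24 CPM at EB day 2 (-1.13 ± 0.23, adjusted p = 0.00119). Fbxo47, a meiosis gene, rose between the days from 1.13 to 1.69 CPM to 1.68 to 3.08 CPM (0.74 ± 0.23, adjusted p = 0.0133), a call lost without f/f (0.58, adjusted p = 0.0766) and without the second libraries (0.63, adjusted p = 0.0564).

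Day 1 was a turning point for some members and not for others. A peak, with a rise to EB day 1 and a fall after it, was seen in 9 members (14.8% of those tested, beside 16.2% of all genes), among them Fbxl17, Fbxl18, Fbxo22 and Fbxw7. Fbxo9 was counted too, but its fall between the days (-0.23 ± 0.08, adjusted p = 0.0284) did not pass without the first libraries (adjusted p = 0.0918), the second libraries (0.111), KO (0.0888), KO+WT (0.26) or KO+N-KR (0.0644). A dip, with a fall and then a rise, was seen in 11 (18.0% of those tested, beside 14.6% of all genes), among them Fbxl20, Fbxo15, Fbxo41 and Fbxw4. Another 5 rose at EB day 1 and stayed higher (8.20% beside 14.3% of all genes), and 8 fell and stayed lower (13.1% beside 16.2%). A further 8, Fbxw5 and Fbxo28 among them, passed in no comparison of states (13.1% beside 14.6%). Past the test against 3i at EB day 2 but not at EB day 1 were 7 lower (11.5% beside 7.53%) and 4 higher (6.56% beside 9.42%). The other 9 followed none of these courses (14.8% beside 7.16%). Feeder markers fell with the exit from 3i (12 of 15 at EB day 1), and the part of feeder RNA in the falls of F-box genes was not tested.

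Eed itself was read first as a check of the labels. It stood at 174, 221 and 130.4 CPM in f/f (3i, EB day 1 and EB day 2, the order used for genotypes), 137, 175 and 102 in KO, 387, 373 and 188 in KO+WT, and 168, 183 and 122 in KO+N-KR. These counts cover all of the gene, and which part is deleted is not given in the labels, so they do not check the deletion. Against KO, Eed was higher in KO+WT (1.17 ± 0.10, adjusted p = 1.75e-05) and did not pass in KO+N-KR (0.20 ± 0.10, adjusted p = 0.191). The level of Eed RNA therefore does not check the N-KR label. The genotype comparisons below that involve KO share its 3 samples, and values are given side by side for that reason.

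KO and f/f cells differed in few F-box genes, and those that passed were lower in KO. In KO against f/f, 0 of the 61 rose and 4 fell, beside 4.45% of all genes higher and 4.32% lower. At an unadjusted p under 0.05 there were 13, and DESeq2 called 5, all lower. The shares of all genes at an unadjusted p or in DESeq2 are not given here or below. Such counts are therefore not read against genes in general. Fbxl14, receptor for the transcription factor SNAIL1, stood at 53.2, 49.7 and 45.8 CPM in f/f and at 43.9, 43.1 and 33.7 in KO, lower in 3 of 3 states and without overlap between the genotypes (-0.31 ± 0.07, adjusted p = 0.0202). Fbxw9 stood at 26.0, 30.6 and 26.8 CPM in f/f and at 22.4, 27.0 and 19.2 in KO (-0.29 ± 0.08, adjusted p = 0.0463). Fbxl5 stood at 88.0, 79.0 and 76.2 CPM in f/f and at 76.6, 68.6 and 63.5 in KO (-0.22 ± 0.06, adjusted p = 0.0301). Fbxo22 stood at 107, 189.6 and 135 CPM in f/f and at 96.0, 162 and 113 in KO (-0.21 ± 0.05, adjusted p = 0.0289). These last 3 were lower in 3 of 3 states too, though the ranges of the genotypes overlapped. Without the EB day 1 samples, which leaves 8 samples and 3 residual degrees of freedom, 0 of the 4 passed (log2 fold changes -0.20 to -0.36, adjusted p = 0.205 to 0.306), and 0 of all 15111 genes tested passed. Without EB day 2 none passed either (adjusted p = 0.0816 to 0.23), without 3i Fbxl5 (0.0566) and Fbxw9 (0.0594) did not, with library totals Fbxl14 alone did, with the second libraries alone Fbxw9 alone did, and with the first libraries alone Fbxl14 and Fbxo22 did.

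The start of Fbxl14 is shown because that gene had the lowest adjusted p in KO against f/f, beside those of Fbxo2 and Fbxo41, the genes with the largest differences past the test in the genotype comparisons that follow. They are the 250 bases before the transcription start in RefSeq (GRCm38.p6), at chr6:119479418-119479667 on the plus strand for Fbxl14, chr4:148160418-148160667 on the plus strand for Fbxo2 and chr6:85502995-85503244 on the minus strand for Fbxo41, printed 5′ to 3′ with each CG in capitals.
Fbxl14: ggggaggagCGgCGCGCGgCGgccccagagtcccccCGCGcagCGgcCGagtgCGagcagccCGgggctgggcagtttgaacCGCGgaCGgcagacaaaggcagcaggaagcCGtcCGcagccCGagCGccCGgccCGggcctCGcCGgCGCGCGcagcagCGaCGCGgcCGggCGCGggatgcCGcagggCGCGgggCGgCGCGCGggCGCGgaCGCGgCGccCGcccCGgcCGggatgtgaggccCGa
Fbxo2: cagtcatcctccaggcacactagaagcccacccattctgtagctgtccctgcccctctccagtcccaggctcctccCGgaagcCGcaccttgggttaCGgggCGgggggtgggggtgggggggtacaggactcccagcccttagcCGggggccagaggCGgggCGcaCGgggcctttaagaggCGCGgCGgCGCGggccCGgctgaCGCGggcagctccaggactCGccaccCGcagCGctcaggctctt
Fbxo41: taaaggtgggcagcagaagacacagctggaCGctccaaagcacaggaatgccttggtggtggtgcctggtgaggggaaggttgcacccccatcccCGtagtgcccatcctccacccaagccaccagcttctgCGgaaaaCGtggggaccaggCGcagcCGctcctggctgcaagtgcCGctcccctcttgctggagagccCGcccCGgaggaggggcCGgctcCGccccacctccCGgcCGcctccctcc

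PRC2 is best known from CpG-rich promoters in stem cells, so CG pairs were counted. Fbxl14 had 47 CG pairs in this window, Fbxo2 had 19 and Fbxo41 had 13, against a median of 6 over all 32851 RefSeq promoters. Of all promoters, 99.8% held fewer than Fbxl14, 80.3% fewer than Fbxo2 and 68.5% fewer than Fbxo41. The bases just after the window were found in a GENCODE transcript of the gene for Fbxl14 and Fbxo41, but not for Fbxo2. The Fbxo2 window therefore rests on the RefSeq start alone. The 78 promoter entries that matched 57 of the 76 genes had a median of 13. On both strands, the TATA box letters TATAAA were in 0 of the 78 and in 12.4% of all promoters. The E-box CACGTG, bound by MYC and by clock proteins, was in 3 of the 78 (3.85%) and in 6.02% of all. The octamer ATGCAAAT, the motif of OCT4, was in 2 of the 78 (2.56%, both entries of Fbxo48) and in 1.60% of all. These are matches of letters in the window, and binding was not measured in these files.

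Against KO, 9 F-box genes differed in KO+WT and 11 in KO+N-KR. In KO+WT against KO, 5 of the 61 rose and 4 fell, beside 7.1% and 8.73% of all genes. In KO+N-KR against KO, 7 rose and 4 fell, beside 6.77% and 8.67% of all genes. The 4 that fell, Fbxo2, Fbxo25, Fbxo8 and Fbxo31, passed in both comparisons, which share the KO samples. DESeq2 called 9 and 11.

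Fbxo2, which binds N-glycans of misfolded glycoproteins, stood at 8.88, 10.3 and 3.08 CPM in f/f, 7.73, 11.4 and 7.14 in KO, 5.82, 6.83 and 3.23 in KO+WT and 5.44, 7.08 and 3.11 in KO+N-KR. Every KO sample lay above every sample of the 2 EED-carrying lines. The differences from KO were -0.77 ± 0.20 (adjusted p = 0.0197) and -0.80 ± 0.20 (adjusted p = 0.0171), and KO against f/f was 0.32 ± 0.19 (adjusted p = 0.298). Fbxo41 stood at 2.55, 1.23 and 5.84 CPM in f/f, 1.96, 0.939 and 3.21 in KO, 3.07, 2.44 and 7.44 in KO+WT and 3.12, 1.75 and 6.72 in KO+N-KR. It was lowest in KO in each state. The rise was 1.07 ± 0.19 with wild-type EED (adjusted p = 0.00268) and 0.88 ± 0.19 with N-KR (adjusted p = 0.00866), and KO against f/f was -0.59 ± 0.20 (adjusted p = 0.0747).

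**Figure D4:**
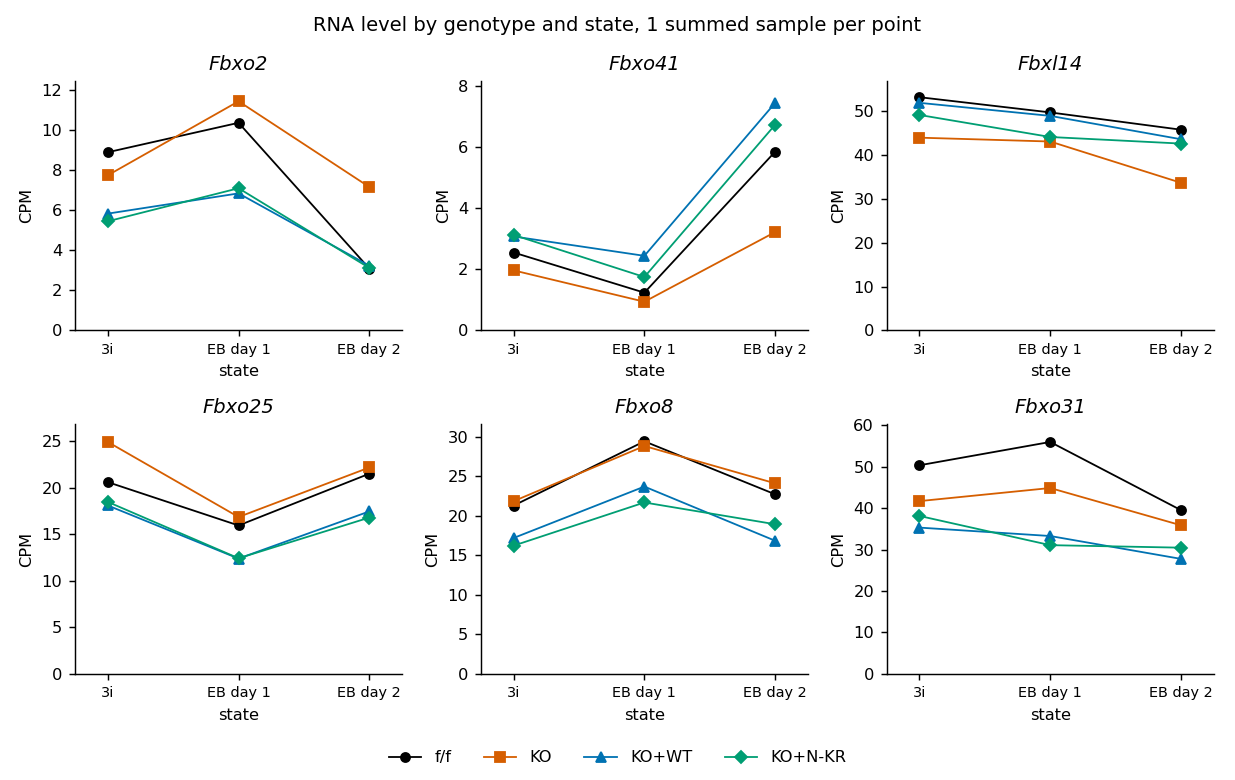
CPM of 6 F-box genes by state, 1 line per genotype and 1 summed sample per point, each axis starting at 0. KO lies lowest for Fbxo41 and Fbxl14 in each state, the KO+WT and KO+N-KR lines run close together below KO for Fbxo2, Fbxo25, Fbxo8 and Fbxo31, and Fbxo2 in KO stays at 7.14 CPM at EB day 2, where the other lines hold 3.08 to 3.23.

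Fbxo25, a nuclear relative of atrogin-1, stood at 24.9, 16.9 and 22.2 CPM in KO, 18.1, 12.4 and 17.5 in KO+WT and 18.5, 12.4 and 16.8 in KO+N-KR (-0.42 ± 0.08 each, adjusted p = 0.00479 and 0.00443). Fbxo8, which carries a Sec7 domain of the kind that activates ARF proteins, stood at 21.8, 28.8 and 24.1 CPM in KO, 17.2, 23.7 and 16.8 in KO+WT and 16.2, 21.7 and 18.9 in KO+N-KR (-0.38 ± 0.08 and -0.40 ± 0.08, adjusted p = 0.00682 and 0.00572). In f/f, Fbxo25 stood at 20.6, 16.0 and 21.5 CPM, near KO in embryoid bodies but nearer to KO+WT and KO+N-KR at 3i. Fbxo8 stood at 21.3, 29.4 and 22.7 CPM in f/f, near KO in each state. Fbxo31, which targets cyclin D1 after DNA damage, stood at 50.3, 56.0 and 39.5 CPM in f/f, 41.7, 44.9 and 35.9 in KO, 35.3, 33.3 and 27.7 in KO+WT and 38.1, 31.1 and 30.4 in KO+N-KR, so f/f was highest in each state. Its values were -0.35 ± 0.09 in KO+WT against KO (adjusted p = 0.0179), -0.29 ± 0.09 in KO+N-KR against KO (adjusted p = 0.038), and -0.25 ± 0.09 in KO against f/f (adjusted p = 0.089).

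On the other side, Fbxl20, a synaptic F-box gene also called Scrapper, stood at 44.6, 26.1 and 42.1 CPM in KO, 54.7, 33.7 and 55.4 in KO+WT and 54.3, 32.9 and 51.1 in KO+N-KR. It rose by 0.35 ± 0.07 (adjusted p = 0.00668) and 0.30 ± 0.07 (adjusted p = 0.0163). Fbxw5, a regulator of centriole number and actin, stood at 24.2, 22.4 and 21.0 CPM in KO, 28.2, 27.7 and 26.8 in KO+WT and 30.9, 28.7 and 29.2 in KO+N-KR, without overlap (0.30 ± 0.07 and 0.39 ± 0.07, adjusted p = 0.0132 and 0.00263). Fbxl19 stood at 69.4, 99.3 and 93.5 CPM in KO, 81.4, 115 and 115 in KO+WT and 82.7, 113 and 121 in KO+N-KR (0.25 ± 0.06 and 0.27 ± 0.06, adjusted p = 0.0126 and 0.00768). All 3 were higher than KO in 3 of 3 states in both lines. In f/f, Fbxl20 stood at 42.9, 27.2 and 50.9 CPM, Fbxw5 at 26.6, 26.2 and 24.7, and Fbxl19 at 79.8, 111 and 101. Both lines thus lay above f/f as well in each state, and none of the 3 genes passed in KO against f/f. Fbxl14 rose with wild-type EED, to 51.9, 48.9 and 43.6 CPM (0.26 ± 0.07, adjusted p = 0.0189), and with N-KR stood at 49.1, 44.1 and 42.6 CPM (0.18 ± 0.07, adjusted p = 0.096). Past the test in KO+N-KR against KO alone were Fbxl12 (0.39 ± 0.12, adjusted p = 0.0458), Fbxl18 (0.30 ± 0.09, adjusted p = 0.0345) and Fbxo22 (0.18 ± 0.05, adjusted p = 0.0332). Their values in KO+WT against KO were 0.20 ± 0.12, 0.13 ± 0.09 and 0.08 ± 0.05, and none of the 3 passed in KO+N-KR against KO+WT, the test of the difference.

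Without the EB day 1 samples none of these calls held in KO+WT against KO (adjusted p = 0.0728 to 0.229) or in KO+N-KR against KO (adjusted p = 0.0838 to 0.333), where 1.49% and 2.17% of all genes still passed. The log2 differences without those samples were 0.95 and 0.87 for Fbxo41, -0.80 and -0.88 for Fbxo2, -0.41 and -0.42 for Fbxo25, 0.34 and 0.27 for Fbxl20, and -0.31 and -0.19 for Fbxo31, in KO+WT and KO+N-KR. Without EB day 2, 4 of 9 (Fbxo2, Fbxo25, Fbxl19 and Fbxl20) and 5 of 11 (Fbxo2, Fbxo25, Fbxo8, Fbxl20 and Fbxw5) passed, and without 3i Fbxl12 did not in KO+N-KR (adjusted p = 0.092). With the second libraries alone Fbxw5, Fbxl14 and Fbxo31 (adjusted p = 0.0697, 0.0658 and 0.052) did not pass in KO+WT, nor Fbxo2, Fbxl18 and Fbxo25 (0.0889, 0.225 and 0.0745) in KO+N-KR. With the first libraries alone Fbxo8 (0.101) did not pass in KO+WT, nor Fbxl20, Fbxo41, Fbxo31, Fbxl12 and Fbxo22 (0.0727, 0.0642, 0.107, 0.17 and 0.0681) in KO+N-KR. Other markers moved in KO+WT against KO as well. Of 15 tested feeder fibroblast markers 7 rose, of 8 formative epiblast markers 6 rose, and of 15 extraembryonic endoderm markers 7 fell. In KO+N-KR against KO those counts were 0, 4 higher and 6 higher. Of 6 markers of 2-cell-like cells, 5 were lower in KO+N-KR against KO (median log2 difference -1.84) and 5 against KO+WT (-2.31), and in KO+WT against KO 1 was higher. Their part in the F-box differences was not tested.

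No F-box gene passed between KO+N-KR and KO+WT over the summed samples. Of the 61, 0 rose and 0 fell in KO+N-KR against KO+WT, beside 0.296% and 0.256% of all genes, and DESeq2 also called 0. Fitted as 24 single libraries, whose spread is close to technical, 14 passed (23% of the 61, beside 20% of all genes), and 15 with a replicate block (24.6% beside 20.4%). At an unadjusted p under 0.05 there were 3, named here after their values were seen: Fbxw9 (0.27 ± 0.08, adjusted p = 0.34), Fbxo24 (0.68 ± 0.27, adjusted p = 0.58) and Fbxl16 (-0.41 ± 0.18, adjusted p = 0.658). The median size of the log2 difference was 0.07 over the F-box genes and 0.08 over all genes. Eed itself was lower in KO+N-KR than in KO+WT (-0.97 ± 0.10, adjusted p = 0.000301).

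**Figure D5:**
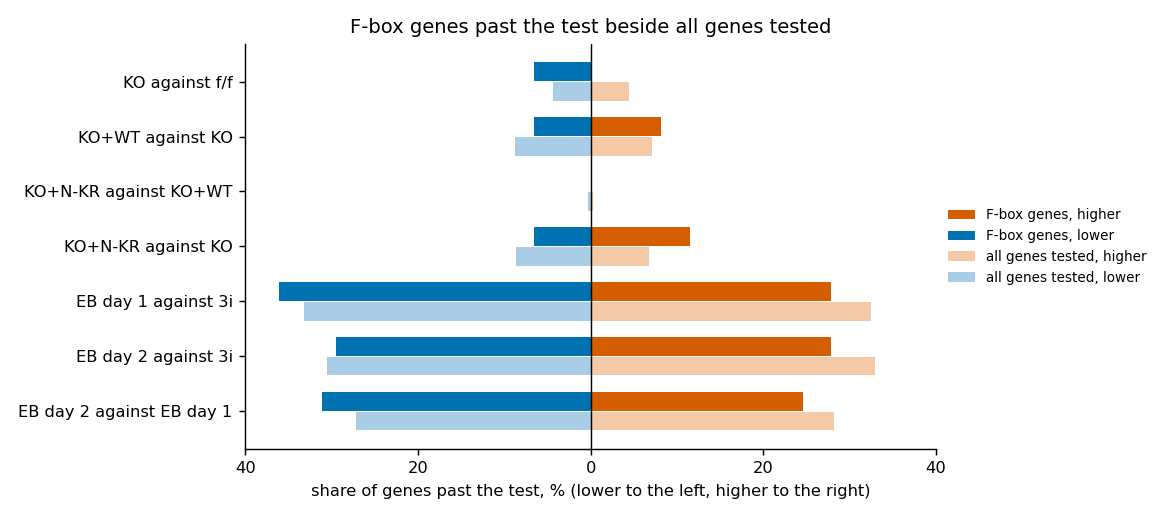
Share of genes past the test in each comparison, lower to the left and higher to the right, for the 61 F-box genes (dark bars) and all 15220 genes tested (light bars). The F-box bars run near the light ones in the state comparisons, where 27.2% to 33.2% of all genes pass each way. Dark and light bars are both shorter in the genotype comparisons, and no F-box gene is higher in KO against f/f.

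Within single states, where there is 1 sample per genotype and no test, F-box differences of 2-fold or more were rare (ratios with a prior count of 2, the larger value being 5 CPM or more). In KO against f/f, 0 members passed that size at 3i and EB day 1, beside 0.507% and 0.546% of all genes, and 1 did at EB day 2, beside 1.97%. That was Fbxo2, with 7.14 CPM in KO and 3.08 in f/f. In KO+WT against KO, 0 members passed at 3i and EB day 1, beside 0.742% and 1.69%, and 2 did at EB day 2, beside 2.62%: Fbxo2 (3.23 against 7.14 CPM) and Fbxo41 (7.44 against 3.21 CPM). In KO+N-KR against KO+WT, 0 members passed in any state, beside 0.497%, 0.426% and 0.241%. Both genes are under 10 CPM, and with a minimum of 10 CPM no member passed.

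Most genes for the partners of F-box proteins rose at EB day 1. Of 32 tested genes of the SCF core and its regulators, a list that runs from Skp1a and Cul1 to ubiquitin-conjugating enzymes and the NEDD8, COP9 and CAND genes, 23 rose and 0 fell at EB day 1, beside 32.4% and 33.2% of all genes. Their median log2 change was 0.38, beside -0.02 for the F-box genes and -0.01 for all genes. At EB day 2, 17 rose and 4 fell against 3i, beside 33% and 30.5%. Between the days, 1 rose and 16 fell, beside 28.2% and 27.2%. Cul1, the scaffold, stood at 103, 117, 113 and 93.4 CPM at 3i and 166, 184, 177 and 167 at EB day 1 (0.70 ± 0.06, adjusted p = 2.46e-07), and Rbx1 rose from 74.4 to 84.1 CPM to 98.1 to 119 CPM (0.42 ± 0.06, adjusted p = 3.46e-05). Skp1a, the adaptor named in the series title, stood between 344 and 419.7 CPM in all 12 samples and passed in none of the 7 comparisons, with 0.04 ± 0.04 at EB day 1 (adjusted p = 0.496) and -0.13 ± 0.05 in KO against f/f (adjusted p = 0.127). In KO against f/f, 4 of the 32 fell and 0 rose, beside 4.32% and 4.45% of all genes.

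All 7 F-box genes under older symbols passed at EB day 1, 4 higher and 3 lower, beside 32.4% and 33.2% of all genes. Kdm2b, a CXXC protein that brings a variant Polycomb complex to CpG islands, stood at 107, 114, 151 and 136 CPM at 3i and 335, 286, 382 and 398 at EB day 1 (1.46 ± 0.08, adjusted p = 3.98e-09). It was higher in KO+WT (0.46 ± 0.09, adjusted p = 0.00398) and KO+N-KR (0.45 ± 0.09, adjusted p = 0.00423) than in KO. Its relative Kdm2a rose at EB day 1 (0.60 ± 0.05, adjusted p = 2.28e-07) and was higher in KO+WT than in KO (0.20 ± 0.06, adjusted p = 0.0326), and did not pass in KO+N-KR against KO (0.16 ± 0.06, adjusted p = 0.0717). Btrc, the paralogue of Fbxw11, fell at EB day 1 (-0.50 ± 0.07, adjusted p = 2.61e-05) and was higher than KO in KO+WT (0.30 ± 0.08, adjusted p = 0.0226) and KO+N-KR (0.28 ± 0.08, adjusted p = 0.0309). Skp2, which removes the inhibitor p27, and Ccnf, which encodes cyclin F, rose at EB day 1 (0.36 ± 0.06 and 0.33 ± 0.06, adjusted p = 8.57e-05 and 0.000161) and passed in no genotype comparison. Lmo7 was the only gene of the 7 to pass in KO against f/f (0.60 ± 0.13, adjusted p = 0.0191), and Lrrc29 fell at EB day 1 (-1.34 ± 0.27, adjusted p = 0.000718). For comparison, the Klhl genes, substrate receptors of the CUL3 ligases, had 25 of 34 tested, with 6 higher and 11 lower at EB day 1 and 3 higher and 0 lower in KO against f/f, read against the same shares of all genes.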

How the data were processed

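The authors deposited whole-number counts of reads per gene, in 1 table of 23284 genes. Per the submitters' processing notes, STAR 2.5.2b, DESeq2 and the mouse build mm9 were used. The tool that counted reads, its strand setting and its annotation were not given in the sources used here. Of its 30 columns, 24 matched the labels and 6 were not used. Groups came from sample titles, since the genotype field of the EED-carrying lines names the KO alone.

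The 2 libraries of each group were summed. Counts were fitted in edgeR 4.0.16 (R 4.3.3, limma 3.58.1) with TMM factors and its default filter, which kept 15220 genes, in an additive model of genotype and state over 12 samples with 6 residual degrees of freedom (common coefficient of variation 7.97%). Quasi-likelihood p-values were adjusted over all genes by Benjamini-Hochberg, with a threshold of 0.05. The fit was tested on simulated counts. Alternatives were DESeq2 1.42.0, library totals, no filter, all 24 libraries with and without a replicate block, and leaving out libraries, states or genotypes. CpG counts used RefSeq promoters of GRCm38.p6, another build than the counts, so no coordinate was carried between them. The limit given for a count of 0 covers counting error only, while standard errors come from the fit and hold the spread over states and genotypes.

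The F-box genes, the gene lists and the tests were chosen with earlier results of these data known. Named were the F-box genes past the threshold in each genotype comparison (the 10 largest where more passed), the 8 largest rises and falls against 3i on each day and the 5 largest each way between the days, plus 12 genes of known roles and 11 that are not members by the rule. The values of 1 of these genes are not reported here.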

Additional observations from a re-analysis of the deposited data

Results flagged for a closer look

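Some F-box genes differed between genotypes or states in opposite directions in different settings, with the 2 libraries of each group on the same side in each. The search covered 6 contrasts of 61 genes, leaving out genes under 1 CPM in both groups. Values are ratios of CPM with 1 summed sample per group, and none of these differences was tested.

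Fbxl17 in KO was 1.27 times its f/f level at 3i and 0.788 times at EB day 2. Fbxo44 in KO was 0.704 times its f/f level at 3i, 1.56 times at EB day 1 and 0.758 times at EB day 2. In KO+WT, Fbxo44 was 0.597 times its KO level at EB day 1 and 1.39 times at EB day 2. Fbxo32 in KO+WT was 0.407 times its KO level at 3i and 1.33 times at EB day 1, and in KO+N-KR it was 1.97 times its KO+WT level at 3i and 0.746 times at EB day 1. The Fbxo32 comparisons share the KO+WT samples, and the Fbxo44 comparisons share the KO samples. From EB day 1 to EB day 2, Fbxl22 went to 0.656 times its level in f/f and to 1.57 times in KO+N-KR.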

How the results depend on the processing

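The counts of F-box genes past the test in the 3 state comparisons stayed within 1.5 times of the main counts under every alternative run (35 to 50 at EB day 1, 31 to 47 at EB day 2 and 29 to 49 between the days), and no result changed sign past the test. The upper ends came from the fit of 24 libraries without a replicate block, where 81%, 80.2% and 75.9% of all genes passed. The genotype counts did not stay within 1.5 times of the main counts. In KO against f/f the count of 4 became 1 with library totals, 1 to 2 when a replicate was left out (the lowest without replicate 1) and 0 to 2 when a state was left out. In KO+WT against KO the 9 became 6 to 8 without a replicate and 0 to 10 without a state. In KO+N-KR against KO the 11 became 6 to 8 and 0 to 13. The highest counts without a state (2, 10 and 13) came from leaving out 3i, where 9.18%, 19.2% and 19.8% of all genes passed. Leaving out EB day 1 gave each 0, beside 0%, 1.49% and 2.17% of all genes. Shares of all genes without a replicate are not given. The cause was not tested, beyond there being fewer samples. With a minimum of 10 CPM the members past 2-fold at EB day 2 were 0 in KO against f/f and 0 in KO+WT against KO.

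Fitted as 24 libraries, which treats near-technical replicates as independent, the counts without a replicate block were 23, 31, 14 and 30 (KO against f/f, KO+WT against KO, KO+N-KR against KO+WT, KO+N-KR against KO), beside 49.3%, 51.3%, 20% and 51.6% of all genes, and with the replicate block 23, 31, 15 and 31, beside 49.4%, 51.5%, 20.4% and 51.8%. Replicate numbers did not pair the samples: over 66 pairs of groups, the correlation of deviations lay between -0.024 and 0.050, with 0 over 0.1. Depth limits the genes under about 1 CPM, such as Fbxo43 and Fbxl7.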
